A study of Sus scrofa with 20 samples.

Results

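The renin-angiotensin and natriuretic peptide genes described here are AGT, ACE, AGTR1, ENPEP, LNPEP, NPR1, NPR2, NPR3 and CORIN. They were listed by symbol, matched to pig Ensembl identifiers and read from the table of RNA-seq counts, in which they are 9 of 31907 genes. The listing used no measured value as a criterion, but it was made with earlier results of these data known. All 9 had at least 10 counts in each of the 10 RNA-seq libraries, and all 9 were among the 16275 genes that passed the filter on low counts and were tested.

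Both systems act on blood pressure, salt balance and fat tissue. Angiotensinogen (AGT), made mainly by hepatocytes and also by adipocytes, is cut in steps, the last by angiotensin-converting enzyme (ACE), to angiotensin II, which acts through the angiotensin II type 1 receptor (AGTR1) and is broken down further by aminopeptidases such as ENPEP and LNPEP. The natriuretic peptides oppose angiotensin II. The atrial peptide is matured by the protease CORIN, signals through the guanylyl cyclase NPR1, which promotes lipolysis in human fat cells, and is cleared by NPR3, whereas NPR2 is the guanylyl cyclase for the C-type peptide.

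Pigs (Sus scrofa) of Nanchukmacdon, a Korean composite breed, were labelled wild type (WT) and normal, with an age of 22 months. The study's methods give another average age. Backfat, the subcutaneous fat of the back, was compared with liver in 5 boars, with 5 RNA-seq libraries per tissue, and the series holds 20 samples with the bisulfite libraries of the same tissues. The labels name no treatment for either group. Whole tissue was used, so that fewer cells of a type and less RNA per cell cannot be told apart. Libraries are named by tissue and boar number (65, 67, 69, 71 and 72), as in the count table.

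Total counts were 45157114 to 61772737 in backfat and 43820042 to 53768601 in liver, and the 9 genes together held 0.0371% to 0.140% of them. Levels are given as CPM, the counts of a gene scaled to a common library total, with libraries made comparable by the trimmed mean of M-values (TMM). Summed over the 6 hepatocyte markers, liver libraries held 18713 to 85907 CPM, and summed over the 5 adipocyte markers, backfat libraries held 9099 to 11957 CPM, against 8.05 to 11.1 CPM in liver. Liver 67 stood apart from the other liver libraries. It had the lowest hepatocyte marker sum (18713 CPM against 71044 CPM or more), the highest skeletal muscle marker sum of liver (159 CPM against 1.22 CPM or less) and 44.5% of counts from mitochondrial genes. The skeletal muscle sum, over the 3 of 6 markers in the count table, was 9.86 to 399 CPM in backfat, highest in backfat 65. Backfat 69 held 92.0 CPM of hepatocyte markers, against 2.76 to 3.41 CPM in the other backfat libraries. For several results that rest on either library, values without it are also given.

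Backfat and liver were compared to ask which genes of both systems differ between the tissues. Of the 9 genes, 5 were differentially expressed genes (DEGs), defined by an FDR not above 0.05 over all genes tested and an absolute log2 fold change not below 2. NPR1, ACE, ENPEP and LNPEP were higher in backfat, and CORIN was higher in liver. By the same definition 22.3% of all genes tested were DEGs, with 11.1% higher in backfat and 11.2% higher in liver. AGT (higher in liver) and NPR2 (higher in backfat) passed the FDR at a smaller fold, so that 7 of the 9 genes passed the FDR at any fold, against 55.0% of all genes. These were 5 genes higher in backfat and 2 higher in liver, beside 28.0% and 27.0% of all genes. AGTR1 and NPR3 did not pass it. In 5 genes, the same that were DEGs, the levels of the tissues did not overlap, with backfat above liver in 4 (22.9% of all genes) and liver above backfat in 1 (19.7% of all genes), against 42.6% of all genes either way. The median absolute log2 fold change of the 9 genes was 2.23, beside 0.81 over all genes tested. Scaled by library size and without TMM, the median over all genes moved from 0.00014 to 0.71 on the log2 scale and the DEGs of the whole table from 1814 higher in backfat and 1819 higher in liver to 2874 and 1340, while the 9 genes still held 4 and 1.

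**Figure D1:**
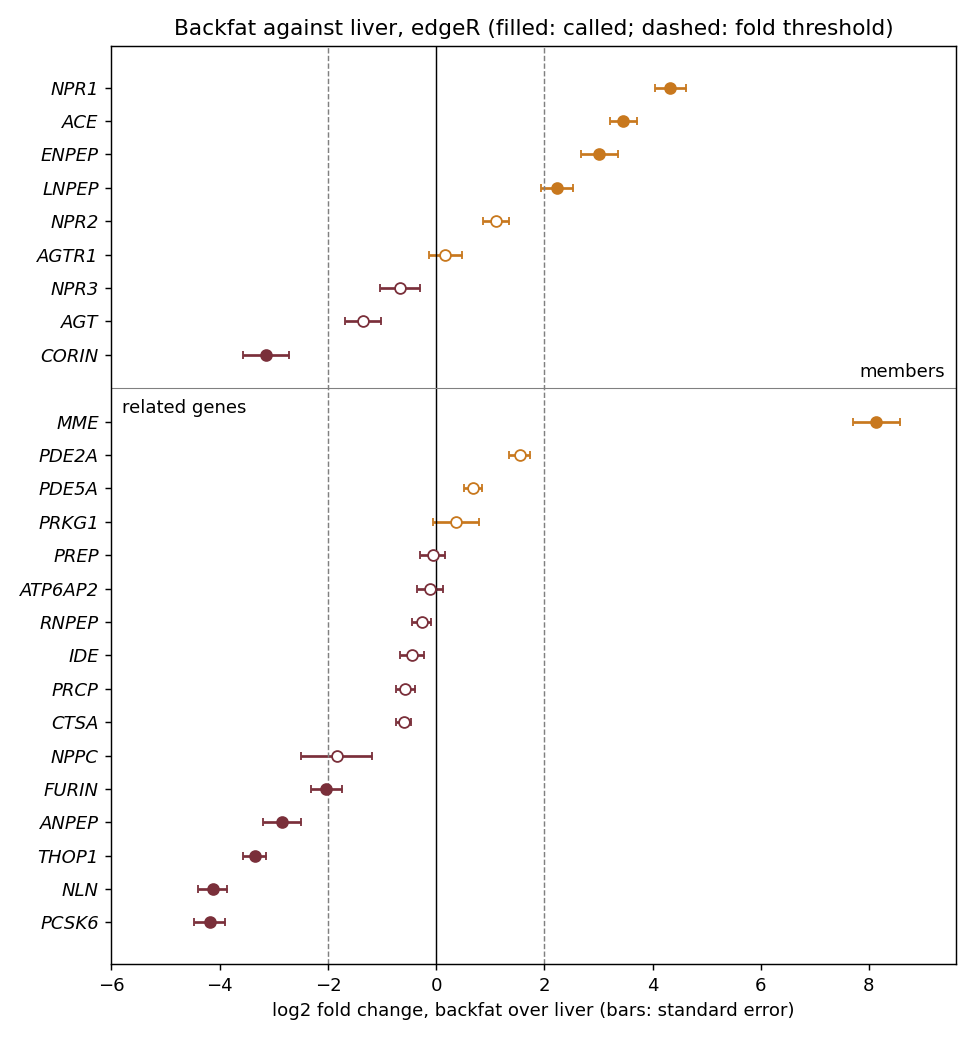
Log2 fold change of backfat over liver (x axis) with its standard error for the 9 genes (upper block) and 16 of the 17 tested related genes (lower block), from edgeR's quasi-likelihood test. Filled points are DEGs and dashed lines mark the threshold, a log2 fold change of 2 in either direction, with NPR1 at 4.33 and CORIN at −3.14 as the ends of the upper block.

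The position of each gene was taken from the RefSeq annotation of Sscrofa11.1, the build of the counts, and the 250 bases upstream of its first annotated base were read from that genome. The windows of ACE and NPR1, the genes highest in backfat relative to liver, of CORIN, the gene highest in liver relative to backfat, and of AGT, the most abundant of the 9, are shown because their content of CpG, the dinucleotide at which most DNA methylation lies, differed widely. Methylation by site was not analysed here. Each is given 5′ to 3′ on the strand of the gene, in lower case, with the matches of 4 motifs, searched on both strands, in capitals. These were the TATA box, searched as TATAAA, and the GC box, searched as GGGCGG. The other two were the CCAAT box, searched by those letters, and GTTAAT, a core of sites of the hepatocyte factor HNF1. No matches overlapped in these windows.
ACE, chr12:15414610-15414859, minus strand: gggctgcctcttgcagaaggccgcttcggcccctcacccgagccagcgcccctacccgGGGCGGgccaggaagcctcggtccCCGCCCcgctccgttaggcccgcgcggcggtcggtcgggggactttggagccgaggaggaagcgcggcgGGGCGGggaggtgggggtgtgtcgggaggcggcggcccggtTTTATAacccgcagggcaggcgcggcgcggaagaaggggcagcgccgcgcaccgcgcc
NPR1, chr4:95974254-95974503, minus strand: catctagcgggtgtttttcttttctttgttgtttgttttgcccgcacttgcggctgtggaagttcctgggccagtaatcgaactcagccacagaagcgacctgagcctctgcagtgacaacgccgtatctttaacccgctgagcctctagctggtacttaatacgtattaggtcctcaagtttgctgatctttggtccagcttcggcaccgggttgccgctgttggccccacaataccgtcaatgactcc
AGT, chr14:59642780-59643029, plus strand: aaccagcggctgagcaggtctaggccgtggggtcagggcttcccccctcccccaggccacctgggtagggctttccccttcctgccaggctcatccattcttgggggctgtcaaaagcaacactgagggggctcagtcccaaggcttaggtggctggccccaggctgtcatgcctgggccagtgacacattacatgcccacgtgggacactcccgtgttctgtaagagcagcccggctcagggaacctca
CORIN, chr8:37811227-37811476, minus strand: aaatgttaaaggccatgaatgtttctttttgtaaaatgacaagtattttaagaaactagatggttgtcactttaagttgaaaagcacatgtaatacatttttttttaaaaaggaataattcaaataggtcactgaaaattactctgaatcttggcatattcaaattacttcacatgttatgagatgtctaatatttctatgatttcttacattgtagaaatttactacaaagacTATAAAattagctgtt

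The ACE window held 35 CpG and 77.2% G and C, the NPR1 window 13 CpG and 52.0%, the AGT window 5 CpG and 63.2%, and the CORIN window 0 CpG and 25.6%. Over 19556 such windows of the annotation the median was 57.6% G and C, 92.3% of windows were below ACE and 0.3% were below CORIN. ACE matched the GC box 3 times and the TATA box once, on the opposite strand, and CORIN matched the TATA box once, 16 to 11 bases before its first base. Among the other genes, the NPR2 and NPR3 windows matched the GC box (21 and 24 CpG), the ENPEP window matched the TATA box on the opposite strand (6 CpG), and the LNPEP (9 CpG) and AGTR1 (1 CpG) windows matched none of the 4 motifs. Over all windows, 9.8% held the TATA box, 45.9% the GC box, 31.9% the CCAAT box and 5.9% the HNF1 core. A match is a run of letters and does not show that a factor binds there, and the annotated start is a gene model and not a measured one.

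AGT (ENSSSCG00000010184, chr14:59643030-59656835, plus strand, 5 exons) encodes angiotensinogen, the only substrate from which angiotensins are made. In boars 65, 67, 69, 71 and 72 it stood at 319, 375, 556, 385 and 282 CPM in backfat. In the liver of the same boars it stood at 1116, 382, 1162.5, 1099.6 and 1107 CPM. In 4 of the 5 boars the liver libraries lay within a narrow band above all backfat libraries, and liver 67 lay inside the backfat range, so the tissues overlapped. The mean was 383 ± 105 CPM in backfat and 973 ± 331 CPM in liver (SD, n = 5), 2.54-fold higher in liver (log2 fold change −1.34, SE 0.33, FDR = 0.00433) that passed the FDR and not the fold threshold. AGT was higher in liver in 5 of 5 boars, with a log2 difference between −1.97 and −0.026. In boar 67 this direction depended on the scaling. Without TMM, AGT stood at 512.5 CPM in backfat 67 and 276 CPM in liver 67, while the other boars kept the direction. Without liver 67 the log2 fold change was −1.59 (FDR = 0.000142), without liver 67 and backfat 69 it was −1.72, and with library size alone it was −0.65 (FDR = 0.109). The FDR ranged from 2.16e-05 to 0.109 over 19 alternatives. These leave out edgeR's glmTreat, which tests against the fold threshold itself. In liver 67, where AGT was low, the hepatocyte marker sum was also the lowest of liver and the share of mitochondrial counts the highest, and their part in the result was not tested. Backfat 69, which had the highest hepatocyte marker sum of backfat (92.0 CPM), also had the highest AGT of backfat, and the part of those markers was not tested. The other 4 backfat libraries held 282 to 385 CPM of AGT beside 2.76 to 3.41 CPM of those markers.

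ACE, ENPEP and LNPEP, the 3 of the 9 genes that encode peptidases acting on angiotensins, were all higher in backfat, and in none of them did a backfat library fall to the level of a liver library. ACE (ENSSSCG00000017296, chr12:15394487-15414609, minus strand, 14 to 26 exons in 2 transcripts), the endothelial surface enzyme that makes angiotensin II, stood at 70.6, 89.1, 75.7, 54.3 and 73.0 CPM in backfat of boars 65, 67, 69, 71 and 72. In liver it stood at 4.19, 10.3, 5.61, 6.13 and 6.70 CPM. The lowest backfat library was above 5 times the highest liver library, which was liver 67. The mean was 72.5 ± 12.4 CPM in backfat and 6.58 ± 2.27 CPM in liver (SD, n = 5), 11.02-fold higher in backfat (log2 fold change 3.46, SE 0.25, FDR = 1.90e-07).

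ENPEP (ENSSSCG00000009132, chr8:111765839-111858349, minus strand, 20 exons), or aminopeptidase A, which turns angiotensin II into angiotensin III, stood at 18.4, 24.5, 10.7, 9.16 and 9.86 CPM in backfat. In liver it stood at 1.75, 1.30, 1.53, 1.58 and 2.79 CPM. Backfat 65 and 67 were above the other 3 backfat libraries, and liver 72 was the highest liver library. The mean was 14.5 ± 6.70 CPM against 1.79 ± 0.584 CPM (SD, n = 5), 8.11-fold higher in backfat (log2 fold change 3.02, SE 0.34, FDR = 1.02e-05). The gene lies within LOC106504743, a long noncoding RNA annotated on the other strand, and counting used no strand option, so reads of the pair cannot be told apart where exons overlap.

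LNPEP (ENSSSCG00000014173, chr2:103568366-103659589, plus strand, 18 exons) encodes an aminopeptidase that binds angiotensin IV and that travels with the insulin-regulated glucose transporter in fat and muscle cells. It stood at 10.5, 11.4, 8.60, 7.52 and 5.59 CPM in backfat and at 2.37, 2.27, 2.08, 1.14 and 1.38 CPM in liver. The lowest value of backfat, in boar 72, was still above the highest of liver. The mean was 8.71 ± 2.32 CPM against 1.85 ± 0.553 CPM (SD, n = 5), 4.70-fold higher in backfat (log2 fold change 2.23, SE 0.29, FDR = 3.21e-05). It lay close to the fold threshold, and tested against that threshold with edgeR's glmTreat it was no longer called (FDR = 0.408, against 2.65e-14 to 0.408 over all 20 alternatives).

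Markers of vessels and connective tissue differed in the same direction as the peptidases. Summed over the 5 of 6 endothelial markers in the count table, backfat held 589 to 1097 CPM and liver 98.6 to 150 CPM. Summed over the 6 smooth muscle and pericyte markers, backfat held 738 to 1092 CPM and liver 178 to 427 CPM, the highest in liver 67, and over the 5 fibroblast and stellate cell markers, 36408 to 67664 CPM and 610 to 1062 CPM. The 4 macrophage markers went the other way, at 121 to 240 CPM in backfat and 247 to 395 CPM in liver. The sums of the 4 lymphocyte markers overlapped between the tissues. All these markers were detected in all 10 libraries. The adipocyte markers given above were also higher in backfat, and the part of any of these markers in the results was not tested.

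**Figure D2:**
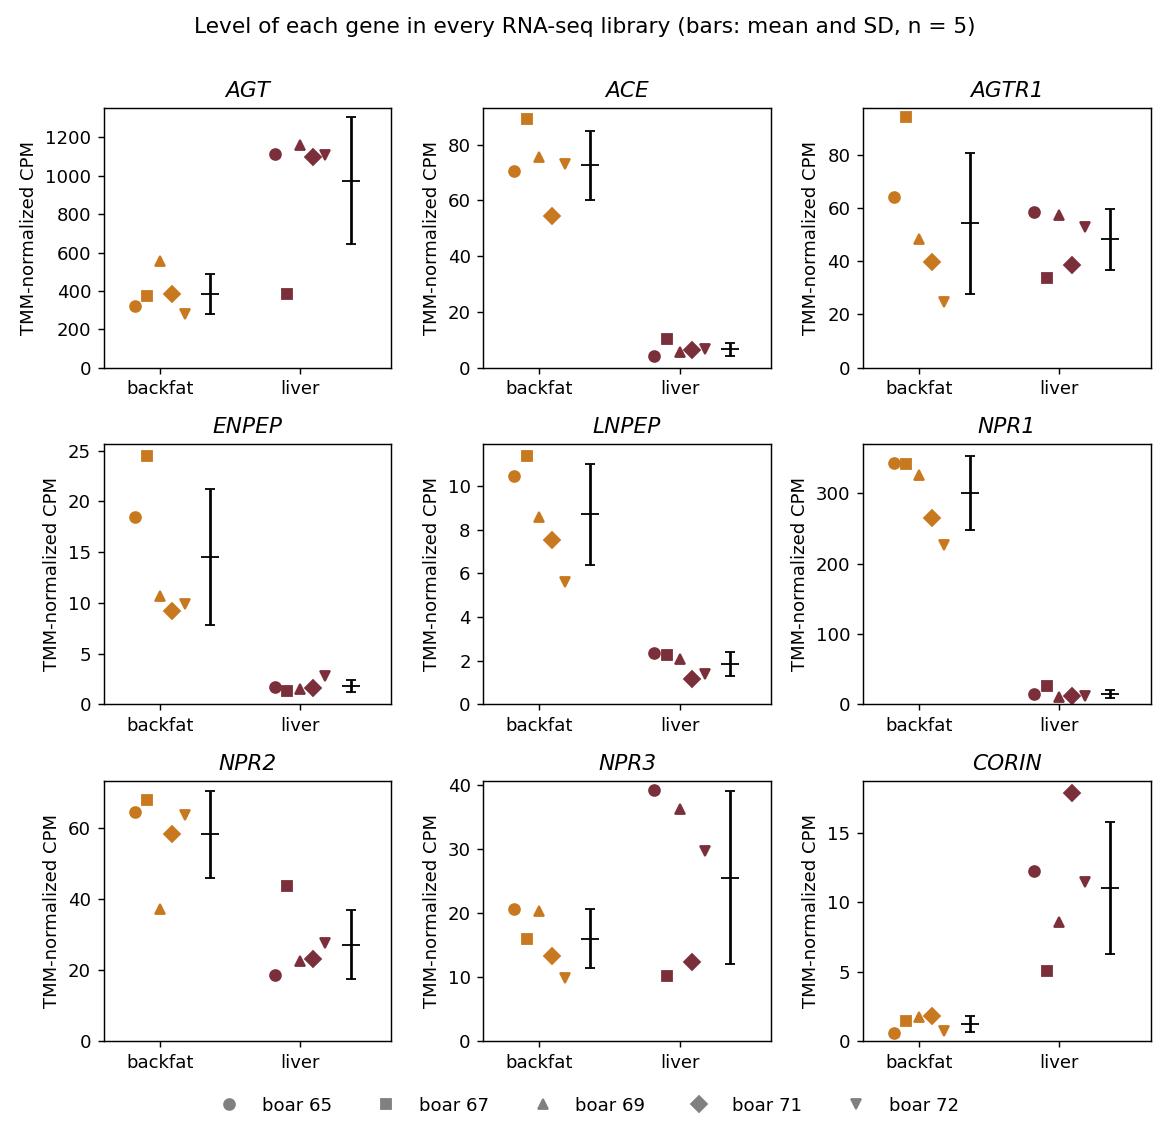
TMM-normalized CPM (y axis, linear, a scale of its own in each panel) of the 9 genes in every backfat and liver library, with the marker shape giving the boar and bars giving mean and SD of 5 libraries. The tissues are apart in ACE, ENPEP, LNPEP, NPR1 and CORIN, and overlap in AGT, AGTR1, NPR2 and NPR3, where liver 67 lies inside the backfat range.

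AGTR1 (ENSSSCG00000011695, chr13:88934873-88980317, plus strand, 3 exons), the receptor through which angiotensin II contracts vessels, did not pass the test. It stood at 64.1, 94.5, 48.6, 39.9 and 24.7 CPM in backfat and at 58.6, 33.7, 57.6, 38.7 and 53.0 CPM in liver. The backfat libraries held both the highest and the lowest value of all 10 and enclosed the liver range. The mean was 54.4 ± 26.6 CPM against 48.3 ± 11.4 CPM (SD, n = 5), with a log2 fold change of 0.17 (SE 0.31, FDR = 0.664), and the gene was higher in backfat in 3 of 5 boars. Without backfat 67 the log2 fold change was −0.12 (FDR = 0.746), and with library size alone it was 0.89 (FDR = 0.0484), the lowest FDR of its 20 alternatives. With glmTreat left aside, the FDR reached 0.937, without liver 67.

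The 3 natriuretic peptide receptors did not behave alike: NPR1 was far higher in backfat, NPR2 was higher by a smaller fold, and NPR3 did not pass the test. NPR1 (ENSSSCG00000006572, chr4:95957220-95974253, minus strand, 22 exons), the receptor of the atrial and B-type peptides, stood at 343, 342, 325, 265 and 226 CPM in backfat of boars 65, 67, 69, 71 and 72. In liver it stood at 14.2, 25.5, 10.9, 12.2 and 11.99 CPM. The tissues were far apart, and the highest liver value was again in liver 67. The mean was 300.2 ± 52.1 CPM in backfat and 14.9 ± 6.02 CPM in liver (SD, n = 5), 20.1-fold higher in backfat (log2 fold change 4.33, SE 0.29, FDR = 1.08e-07). Without liver 67 it was 4.57.

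NPR2 (ENSSSCG00000005322, chr1:236508994-236529172, plus strand, 21 to 22 exons in 4 transcripts) stood at 64.5, 67.7, 37.1, 58.2 and 63.5 CPM in backfat. In liver it stood at 18.7, 43.5, 22.5, 23.0 and 27.5 CPM. Backfat 69 was the lowest of its tissue and liver 67 the highest of its own, and these 2 libraries made the tissues overlap. The mean was 58.2 ± 12.3 CPM against 27.1 ± 9.70 CPM (SD, n = 5), 2.15-fold higher in backfat (log2 fold change 1.11, SE 0.24, FDR = 0.00193) that stayed below the fold threshold, and the gene was higher in backfat in 5 of 5 boars. Without both libraries the log2 fold change was 1.47, and with library size alone it was 1.86. NPR2 overlaps SPAG8 on the other strand by 2514 bases of annotated gene.

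NPR3 (ENSSSCG00000036201, chr16:18841540-18929813, plus strand, 6 to 8 exons in 3 transcripts), which removes natriuretic peptides from the circulation, stood at 20.6, 15.9, 20.3, 13.2 and 9.90 CPM in backfat. In liver it stood at 39.2, 10.1, 36.3, 12.4 and 29.7 CPM. In 3 boars the liver libraries were above all backfat libraries, and liver 67 and liver 71, which also had the largest shares of mitochondrial counts (44.5% and 20.2%), were within the backfat range. The part of that share in the result was not tested. The mean was 16.0 ± 4.60 CPM against 25.5 ± 13.5 CPM (SD, n = 5), with a log2 fold change of −0.67 (SE 0.37, FDR = 0.141). NPR3 passed the FDR without liver 67 (−0.91, FDR = 0.0246, the lowest of 20 alternatives) and not with library size alone (−0.017, FDR = 0.974). It overlaps LOC102162488, a long noncoding RNA on the other strand, by 17272 bases.

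The balance of the receptors was measured within each library as a ratio of counts per kb of exon, which does not depend on the scaling between libraries. In backfat NPR1 exceeded NPR3 by 28.6, 37.0, 27.6, 34.5 and 39.4 times in boars 65, 67, 69, 71 and 72. In liver the ratio of NPR3 to NPR1 was 1.60, 0.231, 1.94, 0.589 and 1.44, so that NPR3 exceeded NPR1 in 3 libraries and was below it in liver 67 and liver 71. The log2 ratio of NPR3 to NPR1 was −5.05 ± 0.23 in backfat and −0.14 ± 1.28 in liver (SD, n = 5), a difference of −4.90. In an exact permutation test, two-sided, this gave p = 0.00794, which no arrangement of the 252 can undercut, and the same value after Benjamini-Hochberg adjustment over the 2 ratios. Without liver 67 the difference was −5.40.

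NPR1 also exceeded NPR2 in backfat, by 5.43, 5.16, 8.97, 4.66 and 3.64 times, and was below it in all 5 liver libraries, at ratios of 0.776, 0.599, 0.493, 0.542 and 0.446. No library of one tissue reached the range of the other. The log2 ratio of NPR1 to NPR2 was 2.41 ± 0.48 in backfat and −0.83 ± 0.31 in liver (SD, n = 5), a difference of 3.25 with p = 0.00794 in the same exact permutation test, before and after adjustment. Without backfat 69 the difference was 3.06. Each difference had the same direction in 5 of 5 boars, and an exact sign-flip test within boars gave p = 0.0625 for both, the smallest that 5 pairs allow.

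**Figure D3:**
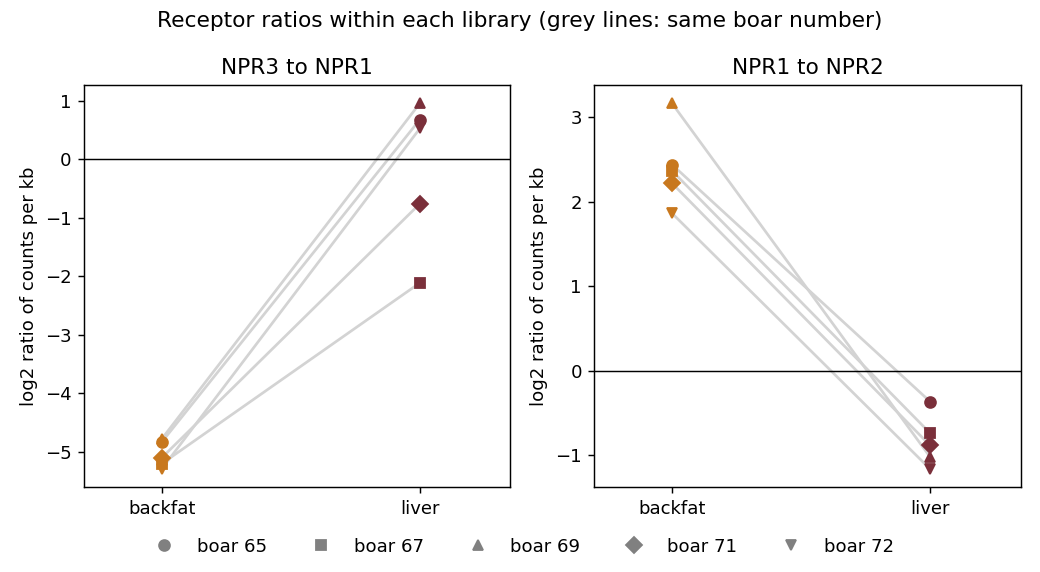
Log2 ratio of counts per kb of exon (y axis) of NPR3 to NPR1 (left) and NPR1 to NPR2 (right) in each backfat and liver library, with grey lines joining libraries of the same boar number. In backfat the left ratio lies between −5.30 and −4.79, and liver 67, at −2.12, is the lowest liver library.

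CORIN (ENSSSCG00000008813, chr8:37530812-37811226, minus strand, 21 to 23 exons in 7 transcripts), the protease that turns the atrial peptide's precursor into its active form and is best known from heart muscle, was the only DEG of the 9 that was higher in liver. It stood at 0.553, 1.46, 1.75, 1.80 and 0.721 CPM in backfat, from 42 to 104 counts per library. In liver it stood at 12.3, 5.02, 8.58, 17.9 and 11.5 CPM, from 186 to 566 counts. Liver 67 was the lowest liver library and was still above all backfat libraries. The mean was 1.26 ± 0.585 CPM against 11.05 ± 4.76 CPM (SD, n = 5), 8.79-fold higher in liver (log2 fold change −3.14, SE 0.42, FDR = 4.64e-05). Without liver 67 it was −3.36. The 4 heart muscle markers together stood at 3.73 to 7.49 CPM in backfat and 3.25 to 11.7 CPM in liver, and their part in the result was not tested. CORIN overlaps ATP10D by 896 bases of annotated gene and the long noncoding RNA LOC102166909 by 1508 bases, both on the other strand.

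Of 30 further genes of both systems, listed by their role, 23 were in the count table and 17 were tested. DEGs were 7 of the 17, or 41.2%, against 22.3% of all genes tested, 2 of them with more in backfat (11.1% of all genes) and 5 with more in liver (11.2%). At any fold 12 passed the FDR (55.0% of all genes), 4 higher in backfat and 8 in liver (28.0% and 27.0%), and 5 did not. The median log2 fold change was −0.45, and the median absolute value was 1.54. In the renin-angiotensin group 5 of 10 tested genes were DEGs, with 2 higher in backfat and 3 in liver. In the natriuretic peptide group 2 of 7 were, both higher in liver, a share of 28.6% that was near the 22.3% of all genes.

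Of the DEGs that were higher in backfat, MME, or neprilysin, which degrades natriuretic peptides and angiotensins, stood at 19.5 to 32.6 CPM in backfat and 0 to 0.158 CPM in liver, where it had 17 counts in all, with a log2 fold change of 8.13 (SE 0.43, FDR = 2.17e-08). The libraries of the tissues did not overlap. MME passed the filter on low counts through its backfat libraries alone. Its FDR and the lack of overlap are therefore no separate support for the difference, and the number of related DEGs includes it.

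The DEGs that were higher in liver were 3 further peptidases and the 2 proprotein convertases. ANPEP, or aminopeptidase N, averaged 38.8 CPM in backfat and 280.5 CPM in liver (log2 fold change −2.85, SE 0.35, FDR = 2.04e-05). THOP1 and NLN, a pair of related endopeptidases that cut angiotensin I, had log2 fold changes of −3.36 (FDR = 6.41e-08) and −4.13 (FDR = 7.57e-08). PCSK6, which activates CORIN, averaged 11.5 CPM in backfat and 209 CPM in liver (−4.18, FDR = 1.35e-07), the same direction as CORIN. FURIN, which processes the precursors of the B-type and C-type peptides, averaged 66.1 and 269 CPM (−2.03, SE 0.28, FDR = 5.40e-05). It lay so close to the fold threshold that 9 of 20 alternatives no longer called it. Its value was −1.33 under library size alone and −1.96 with the boar as a block. Among the 9 was glmTreat, which kept the value at −2.03 and tests against the fold threshold itself. PDE2A, a phosphodiesterase that ends the cyclic GMP signal of NPR1 and NPR2, was higher in backfat below the fold threshold (1.54, FDR = 3.43e-05). Of the other tested genes of that signal, PDE5A was higher in backfat by less (0.69, FDR = 0.00352). PRKG1 did not pass the FDR (0.37, FDR = 0.493).

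Transcripts of the peptide hormones NPPB and NPPC and of the receptor AGTR2 were scarce. AGTR2, the other angiotensin II receptor, had 1 count in the 5 backfat libraries together and 2 in liver. NPPB had 0 counts in either tissue, which allows at most 0.00916 CPM in backfat and 0.0156 CPM in liver. NPPC, the gene of the C-type peptide, averaged 0.139 ± 0.112 CPM in backfat and 0.513 ± 0.366 CPM in liver (SD, n = 5), with a log2 fold change of −1.84 (SE 0.66, FDR = 0.0307). It no longer passed the FDR with the boar as a block (FDR = 0.0571, within 0.0100 to 0.151 over 18 alternatives, with glmTreat left aside). NPPA and MAS1 were not matched to a gene of the count table and are not analysed here. KLK1, OSTN and PRKG2 also had too few counts to be tested. The limits given for NPPB cover counting error only.

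Within a tissue the levels of the 9 genes were ordered by CPM per kb of exon. In backfat the order was AGT (112 ± 30.6, SD, n = 5), NPR1 (66.3 ± 11.5), ACE (15.6), NPR2 (12.6), AGTR1 (10.3), ENPEP (3.94), NPR3 (2.05), LNPEP (1.16) and CORIN (0.200). The ranges of AGT and NPR1, of NPR1 and ACE, and of LNPEP and CORIN did not overlap, whereas those of all neighbours from ACE to LNPEP did. In liver the order was AGT (283 ± 96.4), AGTR1 (9.11), NPR2 (5.84), NPR1 (3.30), NPR3 (3.27), CORIN (1.75), ACE (1.42), ENPEP (0.485) and LNPEP (0.246). There AGT was clear of AGTR1, ACE of ENPEP and ENPEP of LNPEP, and the other neighbours overlapped, with NPR1 above NPR3 in 2 of 5 libraries. AGT was thus first in both tissues, NPR1 was the second in backfat and the fourth in liver, and AGTR1 was the fifth in backfat and the second in liver.

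**Figure D4:**
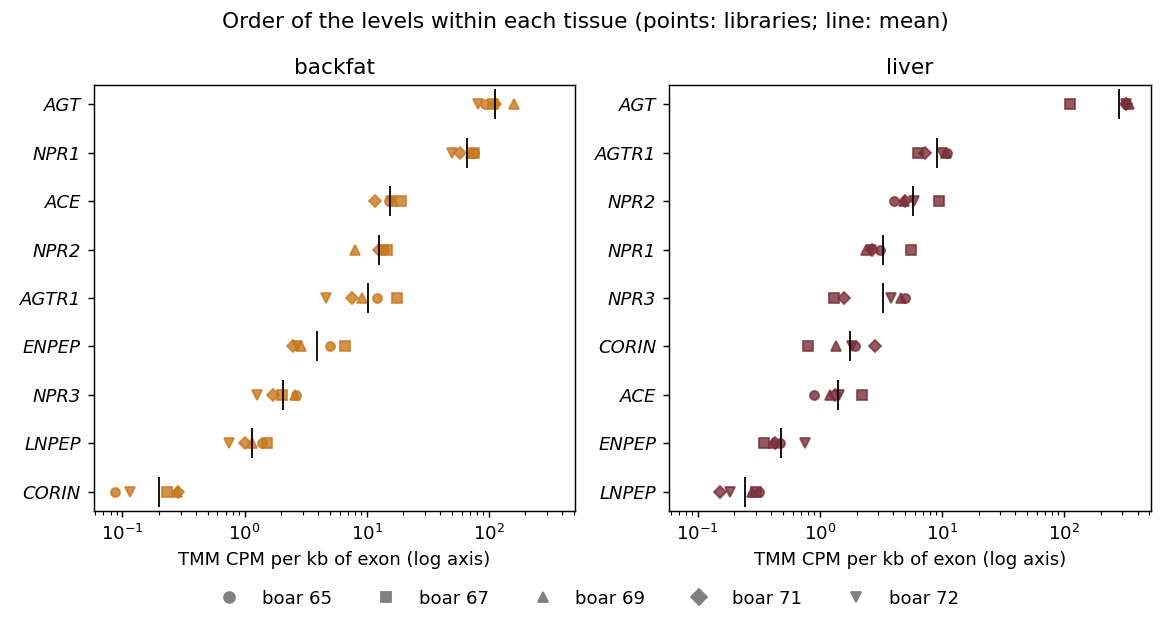
TMM-normalized CPM per kb of exon (x axis, logarithmic) of the 9 genes in backfat (left) and liver (right), ordered by mean from top to bottom, with points for libraries and lines for means. AGT is at the top of both panels, at means of 112 and 283.

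Genes with the most similar pattern were searched by Pearson's r of log2 CPM over the 10 libraries, which follows the difference between the tissues as well as the spread within them. For NPR1 these were BTNL9 and MEOX2 (r = 0.998 for both), for ACE ITIH5 and SGCA (0.996 and 0.995), for LNPEP CDH5 and MTMR3 (0.995 and 0.993), and for ENPEP SIK2 and ADRB1 (0.990 and 0.987). For CORIN they were NUDT12 and PECR (0.996 and 0.981), and for AGT QDPR and WASL (0.985 and 0.979). NPR2 was most like ELF4 and MAP3K6 (0.980 and 0.976) and NPR3 most like NUMB and MED23 (0.971 and 0.951). The lowest values were those of AGTR1, with SEH1L and ASH1L (0.938 and 0.884).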

How the data were processed

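RNA-seq was performed on backfat and liver of 5 boars. Per the labels and the study's methods, RNA was extracted with TRIzol, poly(A) RNA was selected (labels only), libraries were sequenced paired-end on an Illumina NovaSeq, and the authors checked reads with FastQC, trimmed them with Trimmomatic, mapped them with HISAT2 to Sscrofa11.1 and counted them with featureCounts 2.0.1, summing exons per gene of Ensembl release 99 with no strand option. The deposited values are raw read counts per gene. Bisulfite calls were not used here, and no column of the table was left unmapped. The members, the related genes and the marker lists were chosen with earlier results of these data known.

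The counts were filtered (filterByExpr by tissue) and scaled by TMM, and the quasi-likelihood test of edgeR 4.0.16 was run under R 4.3.3 with tissue alone in the model. FDR is the Benjamini-Hochberg adjusted p over 16275 genes, and the SE was taken from the fold change and the F statistic. DEGs were called at 0.05 for the FDR and 2 for the absolute log2 fold change, the thresholds of the study, which used DESeq2, run here as an alternative (1.42.0), as was limma-voom (3.58.1). A pseudocount of 0.5 counts was added for the receptor ratios. In counts simulated for 16275 genes, 200 were changed by 3 on the log2 scale. After filtering, edgeR tested 16058 and called 195 of the 200 and no unchanged gene. The changed genes were a far smaller share than the 22.3% of DEGs in the measured data. The simulation therefore cannot show how the scaling or the calls perform in this contrast.

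All 9 members were named, related genes by a fixed rule (DEGs with at least 1 CPM, and the peptide and receptor genes), of which 2 are not reported here, and the 2 most similar genes for each member. PDE2A, PDE5A and PRKG1 were added after their values were seen. Boar numbers came from the column names, which both tissues share, while the labels number the replicates otherwise and were not matched to boars. Deviations from the tissue means correlated within each boar at 0.0359 to 0.226 and were highest with the own boar in 3 of 5. The replicates were separate animals, 1 library per tissue and boar, and no 2 libraries agreed within sampling noise.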

Additional observations from a re-analysis of the deposited data

Results flagged for a closer look

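In 38 groups of 5 libraries (the levels of members and named related genes, and the receptor ratios, in each tissue), 2 held a library whose gap to its nearest neighbour, divided by the range, exceeded Dixon's critical value of 0.71, where chance sets apart about 1 in 20. Both were in liver 67. AGT was at 382 CPM there, against 1099.6 CPM in the nearest liver library (0.919 of the range). NPR1 was at 25.5 CPM there, against 14.2 CPM in the nearest (0.770 of the range).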

How the results depend on the processing

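Over 21 results and up to 20 alternatives each, 386 of 404 values were kept. A fold change was kept by its direction and its call at both thresholds together. A receptor ratio was kept by its direction and by p on the same side of 0.05, and a number of DEGs by staying within a set margin. The 9 genes held 5 DEGs under each alternative but glmTreat (4). LNPEP was not called by glmTreat (log2 fold change 2.23, FDR = 0.408), which tests against the fold threshold itself. AGTR1 turned to −0.12 without backfat 67, and the cause was not tested. With each library left out in turn, the DEGs numbered 5 throughout among the 9 genes and 6 to 8 among the related genes, and log2 fold changes ranged from −1.59 to −1.24 for AGT, −0.12 to 0.36 for AGTR1, −0.91 to −0.46 for NPR3 and 2.08 to 2.36 for LNPEP. FURIN lost its call in 9 alternatives. NPPC was called in 5, among them −2.07 without liver 67 and −2.30 without backfat 69, and passed the FDR no longer in 7 (FDR = 0.0527 to 0.151), among them without backfat 67, 71 or 72, without liver 71 or 72, with library size alone and with the block. The FDR threshold alone was crossed in 11 of 321 values with glmTreat left aside: the other 4 were AGT and AGTR1 with library size alone and NPR3 without liver 67, with and without backfat 69. With the boar as a replicate block, the 9 genes held 5 DEGs and the related genes 6, FURIN being the call lost, and NPPC no longer passed the FDR (0.0571). The receptor ratios paired by boar kept differences of −4.90 and 3.25 at p = 0.0625 in the exact sign-flip test, which 5 pairs cannot take lower. Over the whole table, DEGs numbered 3633 in the reported fit, 4903 with DESeq2, 5247 with no filter on low counts, 3670 with the block, 2413 with glmTreat and 1852 with at least 10 counts in every library, a filter that leaves fewer genes (13026) and gives no value for MME and NPPC. Genes with few counts, such as AGTR2 and NPPC, are limited by depth.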
